A study of Mus musculus with 8 samples.

Results

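R-loops are structures in which a transcript stays paired with its DNA template and the other DNA strand is left single. Ribonuclease H enzymes cut the RNA of such hybrids, RNA helicases unwind them, topoisomerases relax the supercoils behind the polymerase that favour them, and the THO complex packages the nascent transcript for export so that it cannot fall back onto the DNA. Where a replication fork meets an R-loop, the BRCA and Fanconi anaemia proteins and the ATR and ATM kinases protect the fork and signal the damage. Intestinal crypts hold dividing stem and progenitor cells, so forks are frequent there. The genes described here are 37 genes of these functions chosen by name, of which 36 were found by symbol among the 29037 genes of the table and all 36 passed the filter on low values. Trex1 was not analysed here.

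RNA was sequenced from intestinal crypt epithelium of 8-week-old mice, from 4 conditional knockouts of Tdp-43, labelled cKO, and 4 wild-type littermates, labelled Ctrl, with 1 library per mouse. Tdp-43 is the product of Tardbp and binds transcripts in the nucleus. The sources used here name neither the Cre driver nor the deleted exons of Tardbp. The series title names R-loops in epithelial necroptosis and inflammation, and the comparison asks whether transcripts of the factors that resolve them differ between the groups.

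Reads on genes ranged from 21517596 to 29992110 per library. Tardbp itself had 11990.2, 10794, 11875 and 13269 normalized counts in the libraries labelled cKO 1 to 4, against 6319, 6342, 5103 and 4900.2 in Ctrl 1 to 4. The groups did not overlap, and the direction goes against a loss of the transcript. A count over the whole gene checks nothing about the deletion, so all directions below are between the groups as labelled. Epithelial markers, 7 of 7 of them with reads in every library, summed to 18774 to 24171 TPM (reads per gene length, scaled to the same total in every library) in the libraries labelled cKO and to 18886 to 21573 in Ctrl. Neutrophil markers were higher in the libraries labelled cKO for 5 of 7 genes with limma, 3 with edgeR and 6 with DESeq2, with a summed level of 13.6 to 239 TPM against 0.539 to 15.7 TPM in Ctrl, where Retnlg was at 0 reads in 3 libraries. Macrophage and dendritic cell markers summed to 37.4 to 74.9 TPM in the libraries labelled cKO and 21.4 to 66.4 in Ctrl, and T cell markers to 13.6 to 73.6 TPM in the libraries labelled cKO and 28.2 to 100.3 in Ctrl. Library cKO 2 stood apart from the others labelled cKO in stem cell markers, at 30.9 TPM against at least 47.9 in those, and 50.8 to 63.8 TPM in Ctrl. Library cKO 4 stood apart in others, with neutrophil markers at 239 TPM against 13.6 to 44.0 in the rest labelled cKO, goblet cell markers at 32452 against 16240.7 to 18513, and enterocyte markers at 3951 against at least 7865. In Ctrl, goblet cell markers summed to 21428 to 36827 TPM and enterocyte markers to 4864 to 9459. The part of these cells in the results was not tested, and in bulk tissue fewer cells of a type and less RNA per cell cannot be told apart.

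The members ranged widely in level. Per gene length, the RNA helicase Ddx5 was highest, at 444 ± 27.0 TPM in the libraries labelled cKO and 405 ± 44.4 TPM in Ctrl (SD, n = 4 each, as for all levels below, while log2 fold changes carry the SE). It was followed by the export helicase Ddx39b at 153 ± 18.6 TPM in the libraries labelled cKO and 153 ± 18.5 TPM in Ctrl. Brca2, which acts in recombination and fork protection, was lowest at 2.69 ± 0.425 TPM in the libraries labelled cKO and 2.05 ± 0.649 TPM in Ctrl. The 7 BRCA and Fanconi genes lay at the low end, between 2.37 and 8.90 TPM over the 8 libraries, and the 7 RNA helicases between 16.2 and 424 TPM.

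**Figure D1:**
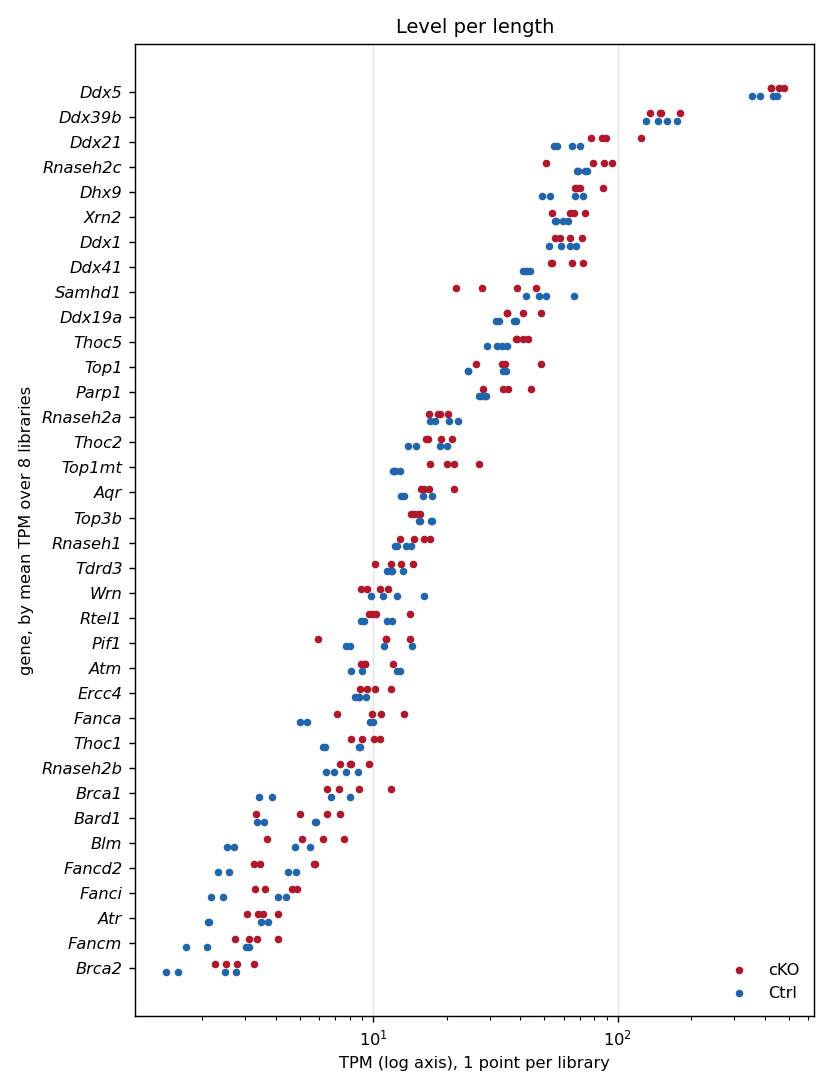
Level of each of the 36 genes per gene length in TPM on a log axis, with 1 point per library, libraries labelled cKO (red) above Ctrl (blue), ordered by the mean over 8 libraries. Ddx5 lies highest, near 424 TPM over the 8 libraries, and Brca2 lowest, near 2.37 TPM.

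Of the 36 genes, 3 were higher and 0 lower in the libraries labelled cKO at an adjusted p under 0.05 with limma, a linear model of log2(normalized count + 1) fitted across all 16536 tested genes. With edgeR 3 members were higher and 0 lower, where it called 988 and 914 of all tested genes higher and lower. With DESeq2 3 members were higher and 2 lower, where it called 1509 and 1492 of all tested genes so. The 3 higher members were the RNA helicases Ddx21 and Ddx41 and the mitochondrial topoisomerase Top1mt. Limma called 5.65% of all tested genes higher and 6.07% lower. The 8.33% of members it called stands near the 11.7% it called in either direction over all genes. It also stands near the 14% among genes whose mean lay between the lowest and the highest member. A share so near the background is no result about the members as a set. At an unadjusted p under 0.05 there were 7 members of 36, against 28.2% of all genes. In 4 members the libraries labelled cKO all lay above Ctrl and in 1 all lay below, where 9.54% and 10.3% of all genes were so separated. Scaled to library totals in place of the authors' factors, 64.3% of all calls were higher, against 48.2% as reported, while the called members were Ddx21, Ddx41 and Top1mt in both. The authors' deposited table called 5 members, 3 higher and 2 lower. It called 5.03% and 5.07% of its 28982 genes with a p-value higher and lower. Those genes include many below the filter on low values that all members passed, so these shares are no like background for the members.

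The size of the differences was small. The median log2 fold change, cKO over Ctrl, was 0.10 over the members and -0.01 over all tested genes. The members' median was 0.04 without cKO replicate 1, 0.17 without cKO replicate 2 and 0.19 with library total scaling, under which the median of all genes was 0.08. A log2 fold change of at least 0.5 in size was seen in 3 members, Samhd1, Top1mt and Brca1, which is 8.33% of them against 24.4% of all genes. One of at least 1 was seen in 0 members, against 8.17% of all genes. These shares of all genes were not matched to the members on level. All tested genes include genes below the lowest member in level. The shares thus do not show whether the members differed less than genes of similar level. The members' log2 fold changes ran from -0.77 for Samhd1 to 0.66 for Top1mt. Without cKO replicate 2, 4 members were called higher, Parp1 being the fourth, and 1, Top3b, was called lower. Without cKO replicate 3, 2 were higher and 1 lower, and without any 1 of the other libraries 0 members were called.

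**Figure D2:**
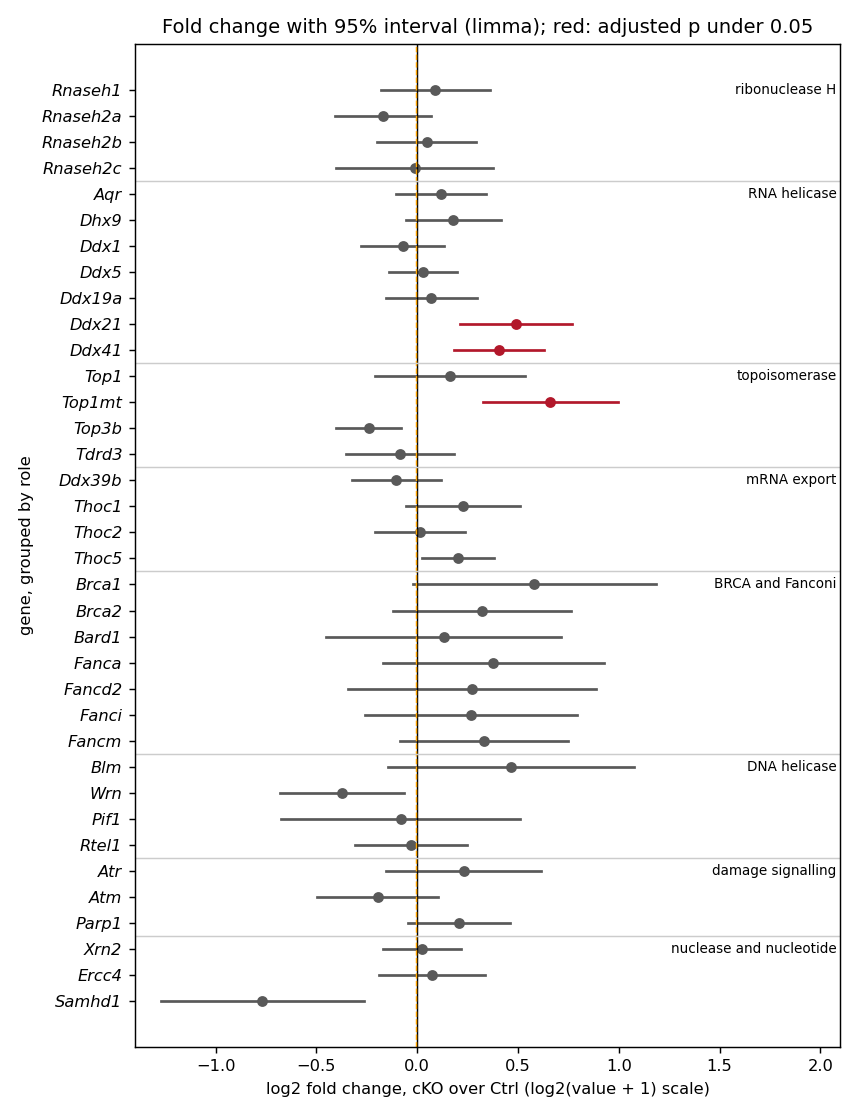
Log2 fold change of each gene, cKO over Ctrl, with its 95% interval from limma, grouped by role. The dashed line is the median of all tested genes at -0.01. Red marks an adjusted p under 0.05, reached by Ddx21, Ddx41 and Top1mt.

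Among the 4 ribonuclease H genes 0 were higher and 0 lower with limma, edgeR or DESeq2, 0 had an unadjusted p under 0.05, and their median log2 fold change was 0.02. Rnaseh1 (chr12:28649602-28659589, plus strand, coordinates as in the authors' table, which match GRCm38) is the single-subunit enzyme that acts in the nucleus and in mitochondria. It had 339.6, 294, 343 and 394 normalized counts in the libraries labelled cKO 1 to 4, against 339, 309, 331 and 304 in Ctrl 1 to 4. The groups overlapped, with cKO 2 the lowest and cKO 4 the highest of all 8 libraries. The log2 fold change was 0.09 ± 0.12 (SE, adjusted p = 0.67), and its 95% interval ran from a ratio of 0.883 to 1.28.

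Rnaseh2a, Rnaseh2b and Rnaseh2c encode the catalytic and the accessory subunits of ribonuclease H2, which also removes single ribonucleotides from DNA. Rnaseh2a had 539, 523, 641 and 577 normalized counts in the libraries labelled cKO and 714, 630.1, 644 and 575 in Ctrl (log2 fold change -0.17 ± 0.11, adjusted p = 0.333). Rnaseh2b had 489, 402, 454 and 453 in the libraries labelled cKO and 397, 474, 407 and 463 in Ctrl (log2 fold change 0.05 ± 0.11, adjusted p = 0.813). Both genes overlapped between the groups. Rnaseh2c, whose sign turned positive with library total scaling, edgeR or DESeq2, had 1231, 773, 1229 and 1462 in the libraries labelled cKO and 1157, 1131, 1205 and 1125 in Ctrl (log2 fold change -0.01 ± 0.17, adjusted p = 0.968). Its spread was uneven, since cKO 2 was the lowest and cKO 4 the highest library, while the 4 Ctrl libraries differed little. All 4 ribonuclease H genes were lowest in cKO 2 among the libraries labelled cKO. The 95% intervals of the ratio, cKO over Ctrl, ran from 0.755 to 1.05 for Rnaseh2a, from 0.872 to 1.22 for Rnaseh2b and from 0.757 to 1.30 for Rnaseh2c. Rnaseh2a shares 9.66% of its exonic bases with Gm49661 on the same strand and 5.04% with Prdx2 on the other. Prdx2 had 4726 ± 617 normalized counts in the libraries labelled cKO and 4740 ± 689 in Ctrl. Rnaseh2c shares 24.8% of its exonic bases with Kat5 on the other strand. The use of strand in counting is not given, so reads in these shared stretches cannot be assigned to either gene.

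Among the RNA helicases 2 of 7 were higher and 0 lower, where 5.65% and 6.07% of all tested genes were called so. Ddx21 (chr10:62580251-62602281, minus strand) encodes a nucleolar helicase of ribosomal RNA synthesis that unwinds R-loops in human cells. The gene had 5277, 3546, 4035 and 4159 normalized counts in the libraries labelled cKO and 3339, 2944, 2998 and 2733 in Ctrl. Each library labelled cKO lay above each Ctrl library, with cKO 1 well above the rest. Its log2 fold change was 0.49 ± 0.12 (adjusted p = 0.0347). Ddx41 (chr13:55530410-55536658, minus strand) encodes a helicase known both for splicing and for sensing DNA in the cytosol. Its normalized counts were 1579, 1273, 1292 and 1567 in the libraries labelled cKO and 1011, 1036, 1154 and 1095 in Ctrl. The groups did not overlap here either, cKO 1 and cKO 4 being the higher pair. Its log2 fold change was 0.41 ± 0.10 (adjusted p = 0.0327).

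Both calls lay close to the threshold. Ddx21 lost the call without cKO replicates 1, 3 or 4 or any 1 Ctrl library (adjusted p up to 0.0920), with log2 fold changes between 0.38 and 0.57 over the 8 libraries left out in turn. Ddx41 lost it without cKO replicates 1 or 4 or any 1 Ctrl library (adjusted p up to 0.0850), with 0.35 to 0.46. Ddx41 shares 17.4% of its exonic bases with the antisense gene Gm46416, and reads there cannot be assigned.

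The promoters of both called helicases are shown with that of Brca1, the member of the replication-coupled group with the highest log2 fold change, so that the letters can be compared. They come from RefSeq on GRCm38.p6, hold 250 bases before and 50 after the gene's start, and are written 5′ to 3′ on the gene's strand. Capitals mark matches on either strand to the E2F letters TTCCCGC or TTCGCGC or TTGCCGC or TTGGCGC, to the CCAAT box (CCAAT), to the E-box CACGTG, and to the cell cycle element CHR, TTTGAA or also TTCGAA.
Ddx21 promoter, chr10:62602249-62602548, minus strand: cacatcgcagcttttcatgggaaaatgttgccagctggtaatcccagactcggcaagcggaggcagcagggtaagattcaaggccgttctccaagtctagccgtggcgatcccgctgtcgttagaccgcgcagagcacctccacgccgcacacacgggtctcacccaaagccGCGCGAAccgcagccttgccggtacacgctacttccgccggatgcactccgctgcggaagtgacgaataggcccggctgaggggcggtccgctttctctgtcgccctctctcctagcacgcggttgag
Ddx41 promoter, chr13:55536609-55536908, minus strand: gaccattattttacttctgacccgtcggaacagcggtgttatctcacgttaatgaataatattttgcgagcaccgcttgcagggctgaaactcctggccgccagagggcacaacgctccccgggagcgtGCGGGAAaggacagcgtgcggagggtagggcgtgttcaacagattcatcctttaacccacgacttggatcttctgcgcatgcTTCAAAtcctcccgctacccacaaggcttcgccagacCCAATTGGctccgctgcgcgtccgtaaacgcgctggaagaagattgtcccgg
Brca1 promoter, chr11:101551906-101552205, minus strand: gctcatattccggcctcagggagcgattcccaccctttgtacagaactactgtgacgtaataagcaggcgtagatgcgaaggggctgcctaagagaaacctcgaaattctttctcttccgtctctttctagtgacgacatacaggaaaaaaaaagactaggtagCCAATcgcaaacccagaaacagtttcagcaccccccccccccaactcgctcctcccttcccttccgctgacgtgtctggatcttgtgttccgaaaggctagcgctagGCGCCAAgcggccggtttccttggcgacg

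Each of these 3 promoters held 1 E2F match, in Ddx21 with its first base 78 bases before the start, in Ddx41 121 bases before it and in Brca1 at base 22 of the transcript. Ddx41 held 2 overlapping CCAAT matches across its start, on opposite strands, and 1 CHR match, Brca1 held 1 CCAAT match, and no E-box was in any of the 3. RefSeq promoters were matched for 29 of the 36 genes, 31 windows in all, and 41.9% of the windows held an E2F match, against 9.57% of all 32851 promoters of the same length. In the BRCA and Fanconi group 5 of 6 windows held one, namely those of Brca1, Brca2, Bard1, Fanci and Fancm. The shares for the CCAAT box were 35.5% of the members' windows and 37.4% of all promoters, for CHR 19.4% and 19.2%, and for the E-box 12.9% and 7.15%. The background of all promoters was not matched to the members on level or base content. These are letter matches in a window, and nothing follows from them about binding.

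The other 5 RNA helicases were not called. Dhx9, which unwinds RNA and DNA-RNA hybrids, had 6108 ± 504 normalized counts in the libraries labelled cKO and 5417 ± 668 in Ctrl (log2 fold change 0.18 ± 0.10, adjusted p = 0.304). Aqr, the intron-binding spliceosomal helicase whose loss raises R-loops in human cells, had 1802 ± 191 in the libraries labelled cKO and 1657 ± 141 in Ctrl (log2 fold change 0.12, adjusted p = 0.477). Ddx5, an abundant cofactor of splicing and transcription, had 22406 ± 640 in the libraries labelled cKO and 21979 ± 1077 in Ctrl, with an interval of the ratio of 0.909 to 1.14. Log2 fold changes were 0.07 for Ddx19a, of the nuclear pore, and -0.07 for Ddx1, of RNA processing and transfer RNA ligation, which was 0.01 with library total scaling. Ddx19a has a close paralogue, Ddx19b, so the split of reads between them is uncertain.

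Of 9 other RNA helicases linked to R-loops or ribosome synthesis, 2 were higher and 0 lower in the libraries labelled cKO. They were the ribosome synthesis helicases Ddx27, with 1634 ± 201 normalized counts in the libraries labelled cKO and 1117 ± 41.8 in Ctrl (log2 fold change 0.54, adjusted p = 0.0126), and Ddx18, with 1131 ± 174 in the libraries labelled cKO and 788 ± 78.7 in Ctrl (0.51, adjusted p = 0.0346). In both, as in Ddx21, the groups did not overlap, which held for 19.9% of all tested genes. Over all tested genes 11.7% were called, and counts in a list this short are no result about it.

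Among the topoisomerases and their partner Tdrd3, 1 of 4 was higher and 0 lower by limma and edgeR, and DESeq2 also called Top3b lower. Limma called 5.65% of all tested genes higher and 6.07% lower, and counts in a list this short are no result about it. Top1mt (chr15:75657035-75678800, minus strand) relaxes mitochondrial DNA. The gene had 358, 487, 314 and 368 normalized counts in the libraries labelled cKO and 229, 221, 252 and 253 in Ctrl. The groups did not overlap, and cKO 2 was the highest library. The log2 fold change was 0.66 ± 0.15 (adjusted p = 0.0246), the largest increase among the 36 genes. The call was lost without cKO replicates 1 or 4 or any 1 Ctrl library (adjusted p up to 0.0650), with log2 fold changes of 0.54 to 0.75 over the libraries left out. Top1mt shares 4.65% of its exonic bases with the antisense gene Gm15945.

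Top3b (chr16:16870736-16892990, plus strand) is a topoisomerase of both DNA and RNA, and it works with its partner Tdrd3, which brings it to chromatin. Top3b had 1045, 1156, 1079 and 1101 normalized counts in the libraries labelled cKO and 1343, 1264, 1322 and 1249 in Ctrl. The groups did not overlap and their spread was narrow, but the log2 fold change of -0.24 ± 0.07 missed the threshold (adjusted p = 0.059). It was called lower in the authors' deposited table (log2 fold change -0.24, adjusted p = 0.0272). In limma it passed without cKO replicate 2 (-0.27, adjusted p = 0.0359). Without each other library in turn the adjusted p of Top3b lay between 0.109 and 0.144. With library total scaling its log2 fold change was -0.16 (adjusted p = 0.183). Tdrd3 had 658 ± 106 in the libraries labelled cKO and 692 ± 19.9 in Ctrl (adjusted p = 0.69). Top1, the main nuclear enzyme, which relaxes supercoils of transcription, had 4153, 2427, 3267 and 3127 in the libraries labelled cKO and 3253, 3194, 2601 and 2435 in Ctrl (log2 fold change 0.16 ± 0.16, adjusted p = 0.57). It was highest in cKO 1 and lowest in cKO 2, so both extremes stood in the same group. Among 8 other topoisomerases and RecQ helicases 0 were called by limma, edgeR or DESeq2, and 1 had an unadjusted p under 0.05.

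**Figure D3:**
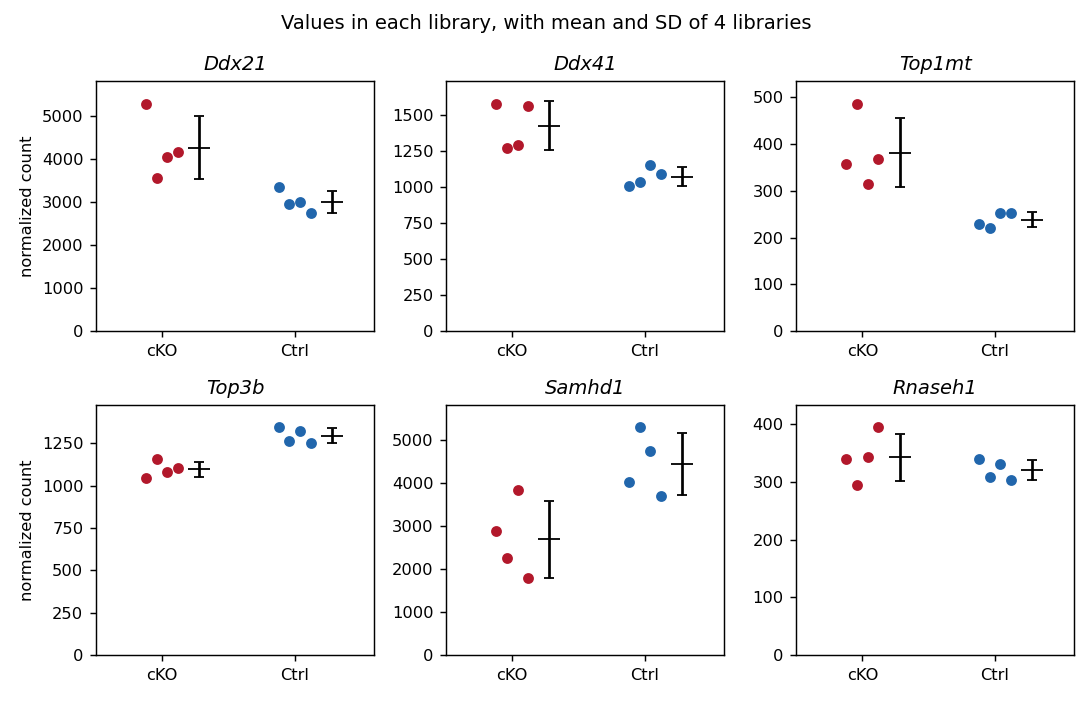
Normalized counts of 6 genes in each library (points) with the mean and SD of 4 libraries (bars), libraries labelled cKO left of Ctrl. Ddx21, Ddx41 and Top1mt lie above Ctrl in all 4 libraries labelled cKO and Top3b lies below, while Samhd1 and Rnaseh1 overlap between the groups.

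Among the mRNA export genes 0 of 4 were called by limma, edgeR or DESeq2, with 1 at an unadjusted p under 0.05. That gene was Thoc5, a subunit of the THO complex, with 1002, 967, 1060.2 and 994 normalized counts in the libraries labelled cKO and 883, 881, 935 and 805 in Ctrl. The groups did not overlap, and the log2 fold change was 0.20 ± 0.08 (adjusted p = 0.135). The THO subunit Thoc2 had 2025 ± 151 in the libraries labelled cKO and 2009 ± 227 in Ctrl (log2 fold change 0.02). Ddx39b, the helicase that joins THO to the transcript, had 5060 ± 424 in the libraries labelled cKO and 5443 ± 564 in Ctrl (-0.10). Thoc1 had 736 ± 74.8 in the libraries labelled cKO and 630.5 ± 88.2 in Ctrl (0.23, adjusted p = 0.267), but shares 24.3% of its exonic bases with Usp14 on the other strand.

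Of 15 other mRNA export genes 1 was higher and 0 lower with limma, where 5.65% and 6.07% of all tested genes were called so. Counts in a list this short are no result about it. With edgeR the counts were the same as with limma, and with DESeq2 3 were higher. The gene called by all of them was Ddx39, the paralogue of Ddx39b, with 3929 ± 784 normalized counts in the libraries labelled cKO and 2641 ± 163 in Ctrl, the groups not overlapping (log2 fold change 0.55, adjusted p = 0.0347). The paralogues thus had log2 fold changes of 0.55 for Ddx39 and -0.10 for Ddx39b, and the difference between them was not tested.

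The BRCA and Fanconi genes all had positive log2 fold changes, 7 of 7 with a median of 0.32. Positive values were also seen in 25 of all 36 members and in 8153 of 16536 tested genes. The 7 genes varied in a similar order across libraries, so their signs are not separate observations. By limma, edgeR or DESeq2 0 of them were called, and 0 had an unadjusted p under 0.05 in limma. Brca1 (chr11:101488764-101551955, minus strand) encodes a ubiquitin ligase of fork protection and recombination. The gene had 825, 486, 557 and 671 normalized counts in the libraries labelled cKO and 629, 504, 335 and 280.2 in Ctrl. The groups overlapped, with Ctrl 1 near cKO 4 and Ctrl 4 the lowest of all. Its log2 fold change was 0.58 ± 0.27 (adjusted p = 0.191).

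Fanca, of the Fanconi core complex, had 958, 549.9, 783 and 844 normalized counts in the libraries labelled cKO and 801, 748, 481 and 423 in Ctrl (log2 fold change 0.38, adjusted p = 0.348). Fancd2, which the core complex marks with ubiquitin together with Fanci, had 376, 241, 234 and 408 in the libraries labelled cKO and 354, 312, 209 and 176 in Ctrl (0.27, adjusted p = 0.566). Fancm, the translocase that anchors the core complex, had 349, 249.6, 292 and 313 in the libraries labelled cKO and 289.6, 285, 183 and 209.9 in Ctrl (0.33, adjusted p = 0.274). Ctrl 1 was the highest Ctrl library in all 7 genes of the group and Ctrl 4 the lowest in 5. Log2 fold changes were 0.32 for Brca2, 0.27 for Fanci and 0.13 for Bard1, the partner of Brca1. Fanci and Fanca share 16.0% and 10.5% of their exonic bases with Polg and Zfp276 on the other strand.

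These genes varied in a similar order across libraries, as did genes of replication and mitosis. Both groups of genes were taken as a mean log2 difference from each gene's own mean over the 8 libraries. The BRCA and Fanconi group stood at 0.45, -0.19, 0.04 and 0.36 in the libraries labelled cKO 1 to 4. In Ctrl 1 to 4 it stood at 0.27, 0.11, -0.46 and -0.58. The 29 genes of the replication and mitosis list stood at 0.48, -0.41, 0.26 and 0.24 in the libraries labelled cKO and at 0.17, 0.09, -0.35 and -0.48 in Ctrl. In both groups of genes cKO 1 was the highest library, cKO 2 the lowest of those labelled cKO, and Ctrl 3 and Ctrl 4 lay below Ctrl 1 and Ctrl 2. The part of dividing cells in these differences was not tested. Positive log2 fold changes were seen in 27 of the 29 replication and mitosis genes. The proliferation marker Mki67 had the lower mean in the libraries labelled cKO, at 7395 ± 1991 normalized counts against 7775 ± 1668 in Ctrl. Of the replication and mitosis list 1 gene was higher and 0 lower with limma, where 5.65% and 6.07% of all tested genes were called so. With edgeR the counts were the same as with limma, and with DESeq2 2 were higher. The gene called by all of them was the S-phase cyclin Ccne1 (451 ± 109.9 in the libraries labelled cKO and 221 ± 61.2 in Ctrl, log2 fold change 1.03, adjusted p = 0.0295), and the median of the list was 0.25.

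**Figure D4:**
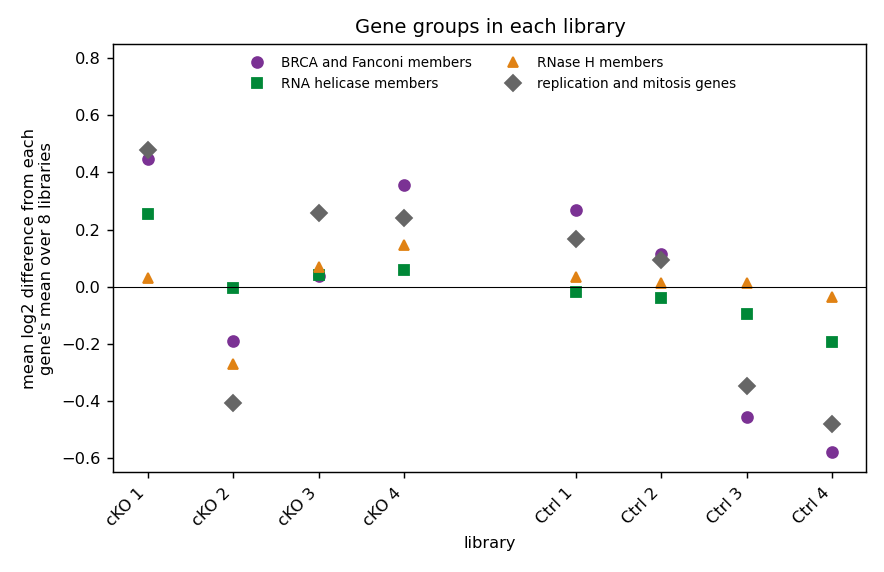
Mean log2 difference from each gene's own mean over the 8 libraries, for 3 groups of members and the 29 replication and mitosis genes, with libraries labelled cKO left of Ctrl. The BRCA and Fanconi points and the replication points are high in cKO 1 (0.45 and 0.48) and low in Ctrl 4 (-0.58 and -0.48), while the RNase H points stay between -0.27 and 0.15.

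Of 16 other BRCA and Fanconi genes 0 were higher and 1 was lower with limma, where 5.65% and 6.07% of all tested genes were called so. The median log2 fold change of the list was 0.00, and counts this small are no result about it. With edgeR the counts were the same as with limma, and with DESeq2 2 were lower. The gene lower in all of them was Wdr48, the cofactor of the USP1 enzyme that takes ubiquitin off FANCD2, with 1574 ± 60.1 normalized counts in the libraries labelled cKO and 2029 ± 71.5 in Ctrl, the groups not overlapping (log2 fold change -0.37, adjusted p = 0.0128). Among 15 other checkpoint genes 0 were called by limma or edgeR and 2, Rad9a and Tipin, were higher by DESeq2, and 2 had an unadjusted p under 0.05.

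Of the DNA helicases 0 of 4 were called by limma, edgeR or DESeq2, 1 had an unadjusted p under 0.05, and their log2 fold changes ran in both directions. Blm, a RecQ helicase that dissolves recombination intermediates, had 544, 284, 405 and 488 normalized counts in the libraries labelled cKO and 384, 423, 227 and 226 in Ctrl (log2 fold change 0.47 ± 0.27, adjusted p = 0.298). As for the BRCA and Fanconi genes as a group, cKO 1 was the highest library and Ctrl 4 the lowest. Wrn, the RecQ helicase of Werner syndrome, had 661, 635, 785 and 608 in the libraries labelled cKO and 869.9, 1075, 849 and 712 in Ctrl. Only cKO 3 reached into the Ctrl range, and the log2 fold change was -0.37 ± 0.14 (adjusted p = 0.112, unadjusted p = 0.0229). The difference between these RecQ genes was not tested. Pif1, which unwinds G-quadruplexes, had 509, 230.1, 448 and 444 in the libraries labelled cKO and 447, 557, 347 and 339.8 in Ctrl, with cKO 2 the lowest (log2 fold change -0.08). Rtel1, of telomeres and R-loops at forks, had 631 ± 89.0 in the libraries labelled cKO and 642 ± 66.4 in Ctrl (-0.03, and 0.05 with library total scaling).

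The 3 damage signalling genes were not called by limma, edgeR or DESeq2, with 0 at an unadjusted p under 0.05 in limma. Parp1, which binds DNA breaks and makes poly(ADP-ribose), had 1908, 1314, 1619 and 1680.0 normalized counts in the libraries labelled cKO and 1388, 1346, 1489 and 1379.6 in Ctrl (log2 fold change 0.21 ± 0.11, adjusted p = 0.26). Library cKO 2 lay below the Ctrl range and the other 3 labelled cKO above it, and without cKO 2 the log2 fold change was 0.31 (adjusted p = 0.0392), while without each other library in turn the adjusted p reached 0.513. Atr, the kinase of stalled forks, had 722 ± 67.0 in the libraries labelled cKO and 628 ± 152 in Ctrl (0.23). Atm, the kinase of double-strand breaks, had 888 ± 85.3 in the libraries labelled cKO and 1026 ± 179 in Ctrl (-0.20).

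Of the nucleases and the nucleotide hydrolase 0 of 3 were called by limma or edgeR, 1 by DESeq2, and 1 had an unadjusted p under 0.05, each time Samhd1. Samhd1 (chr2:157097533-157135265, minus strand) breaks down deoxynucleotides and helps degrade stalled forks. The gene had 2889, 2249, 3843 and 1786 normalized counts in the libraries labelled cKO and 4024, 5298, 4757 and 3705 in Ctrl. Only cKO 3 reached into the Ctrl range. Its log2 fold change of -0.77 ± 0.22 was the largest decrease among the members, but missed the threshold (adjusted p = 0.0568), and it was called in the authors' deposited table (log2 fold change -0.72, adjusted p = 0.0201). Without cKO replicate 3 the log2 fold change was -0.96 (adjusted p = 0.0167), and without cKO replicate 4 it was -0.59 (adjusted p = 0.112). Without each library other than cKO 3 in turn, the adjusted p lay between 0.0820 and 0.136. Samhd1 is also abundant in myeloid and T cells. The T cell markers had a mean log2 difference from their own means of -0.29, -1.11, 0.96 and -0.34 in the libraries labelled cKO and -0.33, -0.01, 1.22 and -0.09 in Ctrl, while 8 of 8 macrophage and dendritic cell markers had positive log2 fold changes, and the part of these cells in the Samhd1 values was not tested. Xrn2, which ends transcription by degrading the downstream transcript, had 2233 ± 220.0 in the libraries labelled cKO and 2190.4 ± 49.3 in Ctrl, with an interval of the ratio of 0.889 to 1.16. Ercc4, the XPF nuclease that can cut R-loops, had 593 ± 84.3 in the libraries labelled cKO and 559 ± 33.8 in Ctrl (log2 fold change 0.07).

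Of 9 nucleotide excision repair genes, which act with Ercc4, 2 were higher and 0 lower. They were the TFIIH helicase Ercc3, with 1425 ± 185 normalized counts in the libraries labelled cKO and 1053 ± 60.7 in Ctrl (log2 fold change 0.43, adjusted p = 0.0322), and the transcription-coupled repair factor Ercc6, with 999 ± 95.6 in the libraries labelled cKO and 779 ± 45.2 in Ctrl (0.36, adjusted p = 0.0408). Of 9 other regulators of R-loops 1 was higher and 0 lower, the snRNP assembly gene Smn1 (544 ± 76.3 in the libraries labelled cKO and 348 ± 33.1 in Ctrl, log2 fold change 0.64, adjusted p = 0.0162). Over all 81 genes of the other pathway lists 6 were higher and 1 lower. That is 8.64% called, near the 11.7% of all tested genes, and no result about these lists as a set. Their median log2 fold change was 0.10, the same as the members' median. Of 18 p53 target genes, which answer to DNA damage among other stresses, 9 were higher and 1 lower with limma and edgeR, and 11 and 1 with DESeq2, with a median of 0.66 in limma. The 4 with the smallest adjusted p were Phlda3 (log2 fold change 3.42), Bax (0.99), Sesn2 (0.96) and Eda2r (2.51), and the lower gene was Sesn1 (-0.60). As a mean difference from the genes' own means, the list stood at 0.35, 0.72, -0.11 and 0.51 in the libraries labelled cKO and at -0.52, -0.33, -0.28 and -0.34 in Ctrl, so that cKO 2, low in the BRCA and Fanconi genes, was highest here.

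**Figure D5:**
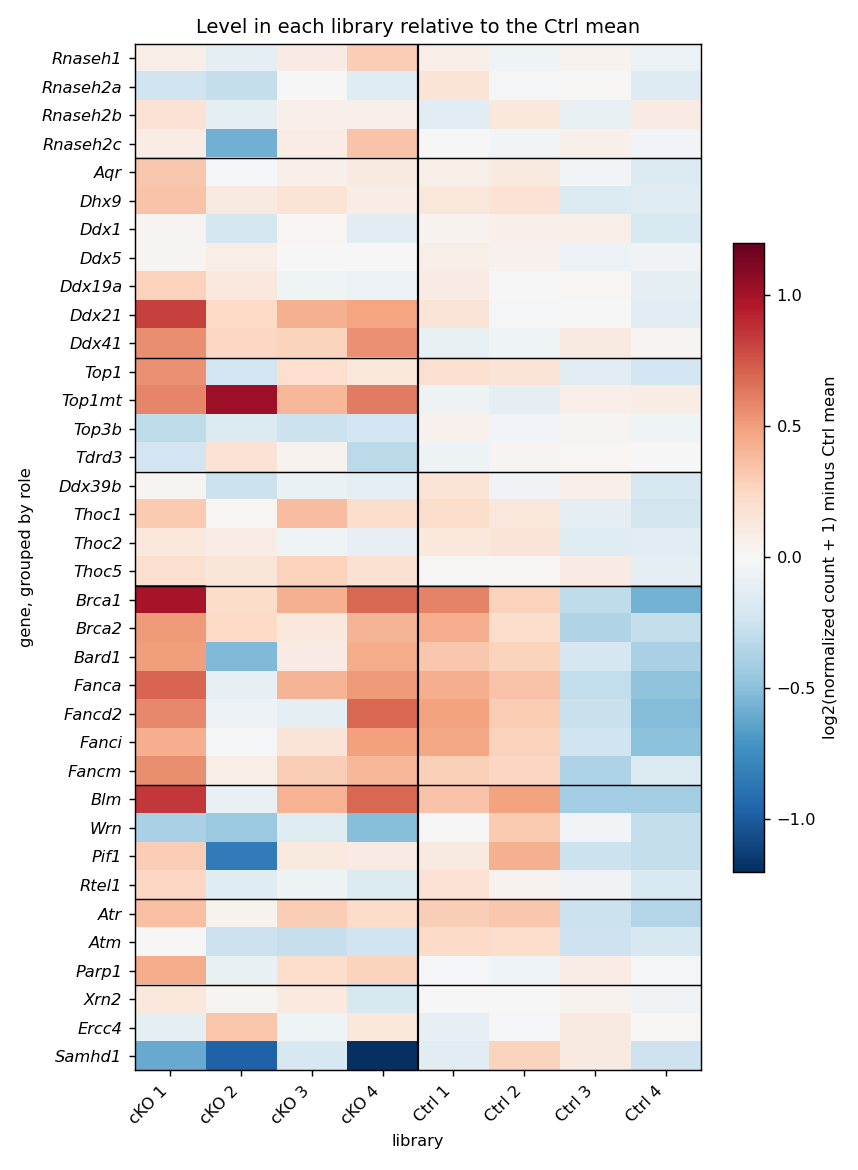
Level of each gene in each library as log2(normalized count + 1) minus its Ctrl mean, in rows grouped by role, with libraries labelled cKO left of Ctrl. Ddx21, Ddx41 and Top1mt are red in all 4 libraries labelled cKO, and the BRCA and Fanconi rows vary between libraries within both groups.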

How the data were processed

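Crypts from 4 cKO and 4 Ctrl mice were released with EDTA, and total RNA was extracted with TRIzol, per the labels' protocols. Tools in the submitters' processing notes are CASAVA, HISAT2 (2.0.5) and featureCounts (1.5.0-p3). Build, annotation and strand setting are not given here. In GENCODE M21, on GRCm38, 98.9% of the gene identifiers were found, 99.5% of them with identical coordinates. The authors deposited a normalized signal per gene and library, gene counts divided by 1 factor per library, called normalized counts here. Dividing by each library's smallest step recovered whole reads for 100% of values (tolerance 1e-04 reads). The authors' deposited table also gives each gene's log2 fold change with a p-value, raw and adjusted, whose test is unnamed. The table's gene length, equal to the merged exons of GENCODE M21 for 99.4% of genes, gave TPM from the recovered reads. TPM was used to compare levels between genes and summed cell type markers between libraries, and in no test.

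Genes with a mean of at least 10 normalized counts were tested with limma 3.58.1 (two-sided, eBayes with its trend and robust options) on log2(value + 1) with group as the only term, Benjamini-Hochberg adjusted over 16536 genes at 0.05. The added 1 shrinks fold changes of low genes. The 17 other settings covered the pseudocount, the filter, scalings, the replicate block, edgeR 4.0.16 and DESeq2 1.42.0 on recovered reads, and each library left out. Fits were tested on simulated counts with known changes, in which genes varied independently. That does not show how calls hold where many genes shift together in a library. Intervals are 95%. Software was R 4.3.3 and Python 3.11.15. The members and lists were chosen with earlier results of these data known, so none of their counts is independent support. Every member was described by role, with values in every library for called or non-overlapping members and the RNase H genes, and up to 4 called genes of each other list. Per-library values of the other members shown (Top1, Brca1, Fanca, Fancd2, Fancm, Blm, Wrn, Pif1, Parp1 and Samhd1), and Mki67, Rad9a and Tipin, fall outside that rule and were chosen after their values were seen.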

Additional observations from a re-analysis of the deposited data

Results flagged for a closer look

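The 36 genes gave 72 groups of 4 libraries, and 1 library stood far from the rest of its group by the ratio of its gap to the group's range. Chance flags about 1 in 20 such groups. It was Atm in cKO replicate 1, at 1015 normalized counts, above the 834 to 857 of the other libraries labelled cKO, and inside the spread of the Ctrl libraries.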

How the results depend on the processing

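Ddx21, Ddx41 and Top1mt had positive log2 fold changes in all 17 other settings. With no filter on the mean Ddx41 lost the call (adjusted p = 0.0507), while Ddx21 and Top1mt kept it (adjusted p = 0.0302 and 0.0301). With DESeq2, 1509 genes were higher and 1492 lower, and 3 members were higher and 2 lower, Samhd1 and Top3b. With edgeR, 988 and 914 genes and 3 and 0 members were called. With a mean of at least 50, 1 member, Top3b, was lower (adjusted p = 0.0469). The replicate numbers are not said to pair mice, and the correlations of same-numbered deviations were 0.32, -0.11, 0.12 and 0.32. Number 2 was below 0.1, while cKO 1, 3 and 4 each correlated best with their own number, so pairing was neither taken as given nor excluded. With the replicate block 821 genes were higher and 924 lower, and 1 member, Ddx21, was higher and 1, Samhd1, lower, while Ddx41 and Top1mt lost the call (adjusted p = 0.0566 and 0.0539). Leaving out 1 library at a time, genes called ranged from 379 to 1347 higher and from 390 to 1385 lower, and members from 0 to 4 higher and from 0 to 1 lower. Signs of uncalled members near 0 changed: with library total scaling Rnaseh2c, Ddx1 and Rtel1 had 0.068, 0.0090 and 0.052, and Rnaseh2c had 0.031 with edgeR and 0.027 with DESeq2. Over the libraries left out, Rnaseh2c ranged from -0.13 to 0.17, Thoc2 from -0.035 to 0.067, Xrn2 from -0.013 to 0.094, Ercc4 from -0.012 to 0.14, Pif1 from -0.21 to 0.17 and Rtel1 from -0.12 to 0.029. The causes of these changes were not tested.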
